A study of Brassica rapa with 5 samples.

Results

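Leaves of the crop plant Brassica rapa, a member of the Brassicaceae, were compared directly between low Fe supply and surplus Zn. The comparison took 2 of the 5 deposited tables, those titled for Fe deficiency and for Zn excess. It covered the genes with a mean of at least 5 TPM (tags per 1000000 clean tags) over these tables, 11123 of the 27458 genes listed in either of them. The gene just inside this limit had 5.38 TPM in the Fe deficiency table and 4.62 TPM in the Zn excess table, and the gene just outside it had 4.62 and 5.38 TPM. Genes absent from a table were set to 0 there, although all genes kept were listed in both tables.

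All plants were of accession R-o-18 and grew for 14 days in hydroponics on normal nutrient solution, which held 2 µM Zn, 3 µM Fe and no Cd. Fe deficiency plants were then moved to 0.05 µM Fe and Zn excess plants to 50 µM Zn for 7 days. The labels name the changed metal of each solution and nothing further. For each condition 3 replicates of 3 plants each were made, the first pair of expanded leaves was taken, and the deposited table is the mean of the 3 libraries. The normal-supply control and the tables for Zn deficiency (0.005 µM Zn) and Cd exposure (1 µM Cd) from the same experiment were used here as further readouts of the same genes.

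Fe is needed in leaves for the electron carriers of photosynthesis and respiration and for chlorophyll synthesis. Zn is a cofactor of many enzymes and a structural part of many transcription factors. In plants such as Arabidopsis the ions share uptake transporters and chelators, and surplus Zn can disturb Fe uptake and movement to the shoot. A direct comparison asks in which genes low Fe and surplus Zn differ, whatever they have in common. The gene identifiers were not paired with names or products in the sources used here (0 of 29183 identifiers matched the reference table), so no function is given for any gene. Leaf markers were not analysed here for the same reason.

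Most genes stood at similar levels under both conditions. Of the 11123 genes, 8786 (79.0%) differed by less than 0.5 on the log2(TPM + 1) scale and 10552 (94.9%) by less than 2-fold. Across genes, which are not independent replicates, the levels on that scale correlated with Pearson's r = 0.944 and Spearman's rho = 0.912. All differences below are log2(TPM + 1) under Fe deficiency minus the same under Zn excess, a scale that understates differences of genes with low TPM. The median gene was 0.097 higher under Fe deficiency, and the quartiles of the genes were -0.14 and 0.34. This shift depended on scaling: on tags in genes it was 0.038, and median-of-ratios size factors, which remove it, differed by 0.105 on the log2 scale.

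Genes that were higher under Fe deficiency made up most of the differences. At least 2-fold higher levels under Fe deficiency were found for 438 genes (3.94% of the genes kept), and at least 2-fold higher levels under Zn excess for 133 genes (1.2%). The 438 genes had a median difference of 1.40, or 2.64-fold on the (TPM + 1) scale, with 72 genes at 4-fold or more and 7 at 8-fold or more. The 133 genes had a median difference of 1.25 in size, or 2.38-fold, with 9 genes at 4-fold or more and 3 at 8-fold or more. Genes higher under Fe deficiency were thus 76.7% of those 2-fold apart. With median-of-ratios size factors this share was 66.3% (344 and 175 genes), and with TMM factors on the tags in genes it was 64.9% (340 and 184 genes). In these leaf samples, fewer cells of a type and less RNA per cell cannot be told apart.

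**Figure D1:**
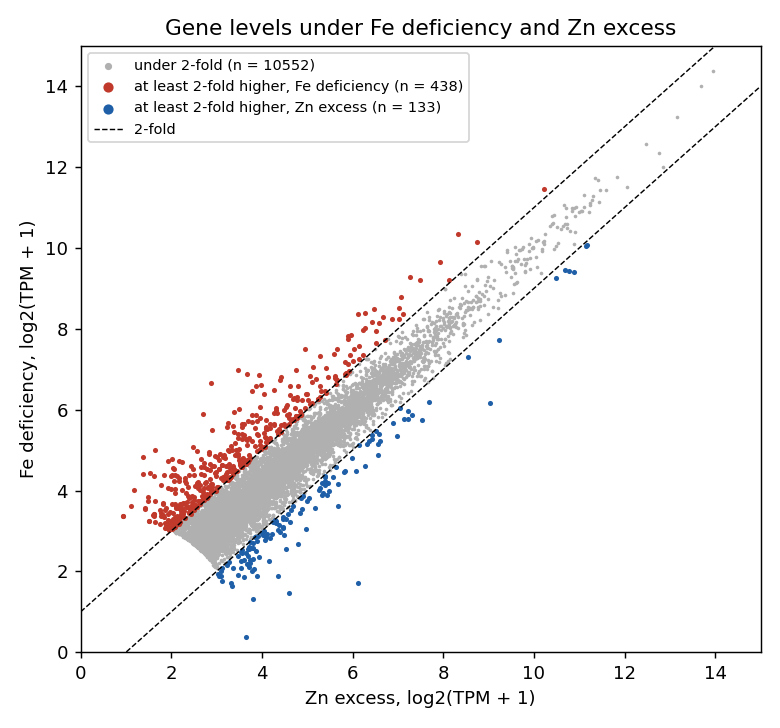
Levels of 11123 genes as log2(TPM + 1) under Zn excess (horizontal axis) and Fe deficiency (vertical axis), 1 point a gene, with dashed lines at 2-fold. The 438 genes above the upper line outnumber the 133 below the lower line, and both groups run over most of the range of levels, but not to its top.

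The error behind these differences was taken from the 2 deposited columns. Mean tags and mean TPM weight the 3 libraries of a condition differently, so that their mismatch gives 1 difference between libraries per gene and condition, called the library contrast. A test on this spread (limma, Benjamini-Hochberg adjustment over all 11123 genes) passed 434 genes as higher under Fe deficiency (3.9%) and 119 as higher under Zn excess (1.07%) at an adjusted p under 0.05. Differences had a median SE of 0.30. Of the 438 genes 94.7% passed, and of the 133 genes 86.5%. These genes were chosen by the same difference that the test uses, so these shares are no separate support. The 41 genes that were 2-fold apart and did not pass had differences of 1.00 to 1.19 in size, with adjusted p between 0.0503 and 0.277 (limma). Another 23 genes passed with differences under 2-fold, of 0.90 or more in size. When the spread was averaged over all 5 conditions, 284 and 79 genes passed. In Zn excess the totals of the 3 libraries differed by only 0.84%, and the library with the middle total weighed 6.99% as much as that with the lowest, so a deviation of that library is largely missed.

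The shares changed little with the level of the gene. Of 6836 genes at a mean of 5 to 20 TPM, 259 (3.79%) were at least 2-fold higher under Fe deficiency and 78 (1.14%) under Zn excess. Of 3489 genes between 20 and 100 TPM, 144 (4.13%) and 41 (1.18%) were. Of 798 genes at 100 TPM or more, 35 (4.39%) and 14 (1.75%) were, and 35 and 12 of these passed the limma test. Fractional tags, the form that tags divided among similar genes take, were found in 29.2% of the 438 genes and 26.3% of the 133, against 29.7% of all genes kept.

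The largest difference in favour of Fe deficiency was in Bra008435. It had 1775 tags over 3 libraries under Fe deficiency (100 TPM) and 110 tags under Zn excess (6.32 TPM), a TPM ratio of 15.8. The counting interval (95%, exact Poisson, counting error only) of the lower value was 5.19 to 7.61 TPM. The difference was 3.79 (SE 0.34, adjusted p 1.31e-07, limma). The control table lay between these values at 19.4 TPM, Zn deficiency at 48.3 TPM and Cd exposure at 9.43 TPM.

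Bra012269 was next, with 2241 tags under Fe deficiency (126 TPM) and 177 tags under Zn excess (10.2 TPM), a TPM ratio of 12.4. The difference was 3.51 (SE 0.31, adjusted p 1.31e-07, limma), and some of its tags were fractions. Its order over the other tables resembled that of Bra008435, with 41.8 TPM in Zn deficiency, 16.8 TPM in the control and 10.4 TPM in Cd exposure. In both genes Fe deficiency was the highest of the 5 tables and Zn deficiency the second.

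Both genes also varied between libraries of a condition. The library contrast of Bra008435 was -97.3% of its level in the control and -71.8% in Zn deficiency, against 50.1% in Fe deficiency and 38.8% in Zn excess. That of Bra012269 was -65.1%, -74.0%, 47.4% and -9.38% in the same order. A negative contrast means that libraries with a lower clean-tag total held more of the gene.

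The largest difference in favour of Zn excess was in Bra009221, at 68.7 TPM under Zn excess (1194 tags) and 2.26 TPM under Fe deficiency (40 tags), a ratio of 30.4. The counting intervals were 64.9 to 72.7 TPM and 1.62 to 3.08 TPM, and the difference was -4.42 (SE 0.33, adjusted p 1.08e-08, limma). The other tables held 0.924 TPM (Zn deficiency), 1.56 TPM (Cd exposure) and 1.84 TPM (control). Zn excess alone stood apart from the other 4 tables.

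Bra024556 had the same pattern at lower levels. It stood at 11.6 TPM under Zn excess (202 tags) and 0.295 TPM under Fe deficiency (5 tags, interval 0.0959 to 0.690 TPM), with a difference of -3.28 (SE 0.47, adjusted p 6.73e-05, limma). The control held 1.25 TPM, Zn deficiency 0.232 TPM and Cd exposure 0.117 TPM. The library contrast within Zn excess was -75.9% for Bra009221 and -47.6% for Bra024556.

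**Figure D2:**
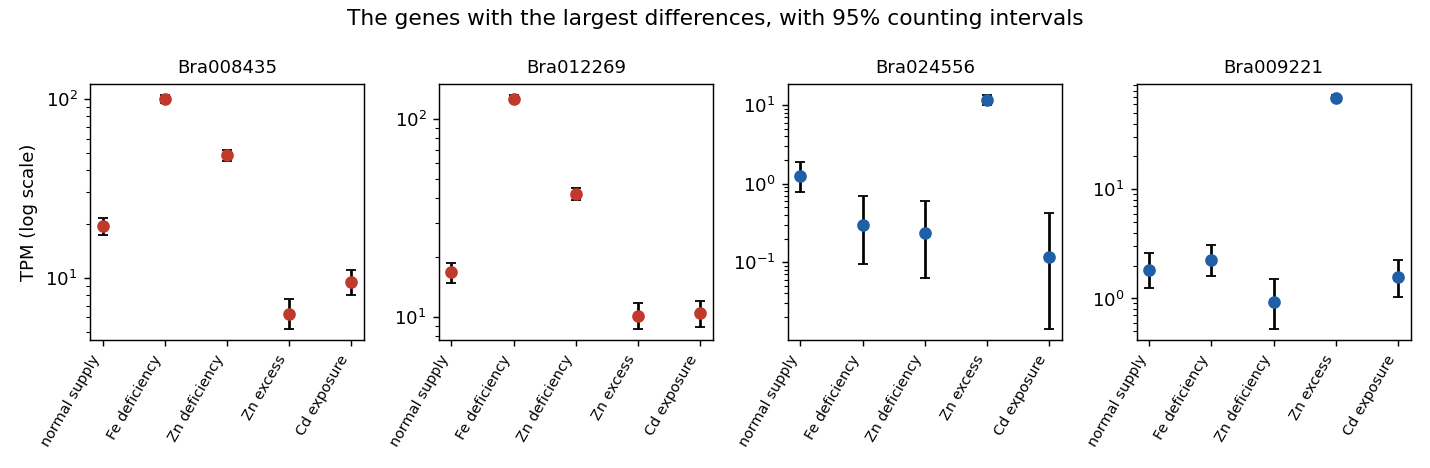
TPM on a log axis in each of the 5 tables for the 4 genes with the largest differences, with 95% exact Poisson intervals as bars, which cover counting error only. Bra008435 and Bra012269 are highest under Fe deficiency (100 and 126 TPM), while Bra009221 and Bra024556 are high under Zn excess (68.7 and 11.6 TPM) and low in the other 4 tables.

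These genes head lists of 12 on each side. The other 10 genes on the Fe deficiency side had differences of 2.77 to 3.44, with 15.0 to 118 TPM in the Fe deficiency table and 1.26 to 14.4 TPM in that of Zn excess, and all passed the test (limma, adjusted p 9.08e-09 to 8.76e-06). All 12 had their highest value in the Fe deficiency table, as 37.7% of all genes kept did, but the choice of these genes raises their share. In 1 of them Cd exposure was close, at 117 TPM against 118 TPM. Zn deficiency was at least 2-fold above Cd exposure in 8 of the 12 and at least 2-fold below it in 2. Among all genes kept these shares were 10.3% and 2.63%. The other 10 genes on the Zn excess side had differences of 1.90 to 3.13 in size and also passed (adjusted p 1.37e-06 to 0.000809). They covered a wider range of levels, with 12.9 to 523 TPM in the Zn excess table and 1.49 to 71.1 TPM in that of Fe deficiency. Of the 12 on that side, 10 had their highest value in the Zn excess table, as 17.7% of all genes kept did. The choice of genes raises this share too, and makes passing the test likely on both sides.

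Differences in plain TPM gave another picture, since they follow the genes with most tags. The sum of TPM over genes was 585704 under Fe deficiency and 560697 under Zn excess. Gains summed to 80756 TPM and losses to 55750 TPM. The largest gains, 5357 and 3407 TPM in 2 genes, were 10.9% of all gains, while the 438 genes gained 18849 TPM together. Neither of these 2 genes was 2-fold apart: their Fe deficiency values were 21288 and 16590 TPM and their Zn excess values 15931 and 13182 TPM, with adjusted p of 0.658 and 0.757 (limma). The control lay nearer the Fe deficiency values, at 18973 and 17238 TPM. The gene with the largest plain difference in favour of Zn excess was at 7327 TPM there and 4090 TPM under Fe deficiency (adjusted p 0.275, limma). The next 2 genes on that side had adjusted p of 0.641 and 0.477 (limma). Summed TPM under Fe deficiency and Zn excess was 28523 and 9675 for the 438 genes, and 6980 and 17443 for the 133 genes.

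The control was not used to choose these genes, and its level was set beside theirs. The median level of the 438 genes in the control, 10.5 TPM, lay close to that under Zn excess (8.18 TPM) and below that under Fe deficiency (24.4 TPM). The control lay nearer to Zn excess than to Fe deficiency for 379 of them (86.5%, over genes that are not independent replicates). It lay between the values of both conditions for 328 genes, below both for 102 and above both for 8. These positions of the control were not counted over all genes kept. The median difference of all genes kept from the control was 0.18 under Fe deficiency and 0.078 under Zn excess. How far this general shift enters the counts was not tested. Each gene was also sorted by which condition was at least 2-fold from the control in the direction of the difference. For 270 genes (61.6%) this was Fe deficiency alone, for 21 Zn excess alone and for 13 both, while 134 had neither. Among all genes kept, 4.24% were at least 2-fold above the control under Fe deficiency, and 0.926% were at least 2-fold below it under Zn excess. The Fe deficiency value is part of the choice as well as of this sorting, so these shares only describe where the control lay.

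The genes of these classes differed in level. The 270 genes apart from the control under Fe deficiency alone had a median of 25.6 TPM there, with 8.18 TPM in the control, where the Zn excess median was 7.38 TPM. The 21 genes apart under Zn excess alone had a median of 5.56 TPM there, against control and Fe deficiency medians of 22.8 and 19.9 TPM. The 13 genes with both had medians of 94.7, 20.5 and 9.48 TPM, from Fe deficiency through the control to Zn excess.

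The 133 genes had a median of 21.4 TPM under Zn excess, and the control median of 14.8 TPM lay between this and the 8.12 TPM under Fe deficiency. For 33 genes Zn excess alone was at least 2-fold above the control, for 34 Fe deficiency alone was at least 2-fold below it, and 66 had neither. This split moved with some settings: with a pseudocount of 5 it was 22 genes for Zn excess alone against 10 for Fe deficiency alone. Without a filter on low values it was 64 against 51, with a minimum mean of 20 TPM 16 against 13, and at 4-fold 4 against 1. With a pseudocount of 0.1 it was 41 against 46, and in genes without fractional tags 26 against 27. Median-of-ratios size factors gave 42 against 40, and TMM factors 44 against 41. Among all genes kept, 1.1% were at least 2-fold above the control under Zn excess and 1.05% at least 2-fold below it under Fe deficiency. Across Zn excess, the control and Fe deficiency, the 33 genes had medians of 26.9, 7.00 and 6.23 TPM. The 34 genes had medians of 20.7, 23.8 and 8.10 TPM in this order. By definition the 33 genes lay above the control under Zn excess and the 34 genes below it under Fe deficiency, so these medians only describe both classes.

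**Figure D3:**
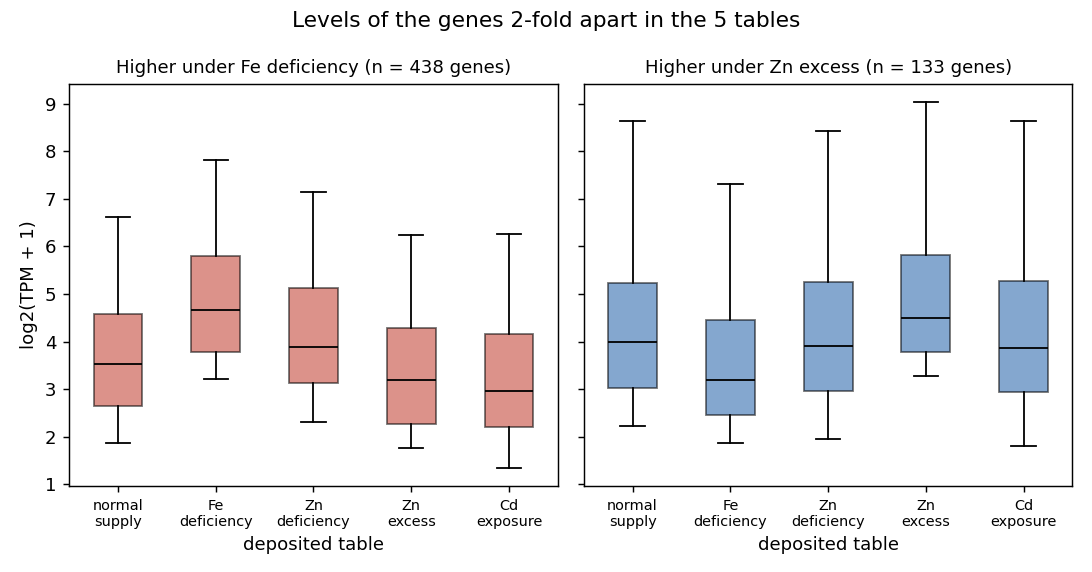
Log2(TPM + 1) of the genes 2-fold apart in each of the 5 tables, with boxes from the lower to the upper quartile, a line at the median and whiskers from the 5th to the 95th percentile of genes. The 438 genes (left) are highest under Fe deficiency, with Zn deficiency next, and lowest under Cd exposure and Zn excess, while the 133 genes (right) have medians of 13.7 to 14.8 TPM in the 3 tables that did not choose them.

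Genes that stood at least 2-fold from the control in the same direction under both conditions were set beside all genes kept, of which 5.13% were 2-fold apart between Fe deficiency and Zn excess. Of 62 genes above the control in both, 2 were at least 2-fold higher under Fe deficiency and 1 was under Zn excess (4.84% together). Their median difference was -0.0018. Of 48 genes below it in both, 1 was at least 2-fold higher under Fe deficiency and 3 under Zn excess (8.33% together). Their median difference was -0.18, with 36 of 48 lower under Fe deficiency. Over all genes the median was 0.097, and 61.2% of them were higher under Fe deficiency. These differences from the control share its table, and the counts are descriptions.

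The tables for Zn deficiency and Cd exposure share no library with the comparison. The 438 genes were mostly higher under Zn deficiency than under Cd exposure. Their median difference, Zn deficiency minus Cd exposure, was 1.00, against 0.080 over all genes kept. At least 2-fold higher levels under Zn deficiency were found for 219 of them (50.0%), against 10.3% of all genes. At least 2-fold higher levels under Cd exposure were found for 11 (2.51%), against 2.63% of all genes. In a limma test of this difference, built from the contrasts of these tables, 215 of the 438 genes rose under Zn deficiency relative to Cd exposure (adjusted p under 0.05), where 1143 of all genes did (10.3%). The library with the middle total weighed 2.48% as much as that with the lowest in Zn deficiency, and 1.53% in Cd exposure. A deviation of that library is therefore largely missed, and this comparison was chosen after the data were seen.

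Both tables moved away from the control in these genes. Against the control, 87 of the 438 genes were at least 2-fold higher under Zn deficiency (19.9%, against 2.57% of all genes) and 86 were at least 2-fold lower under Cd exposure (19.6%, against 2.92%). The median levels were 13.7 TPM in Zn deficiency, 10.5 TPM in the control and 6.84 TPM in Cd exposure. Cd exposure held the lowest of the 5 values for 246 of the 438 genes (56.2%, against 40.2% of all genes), and Zn excess for 149, against 9.66% of all genes, a share that the choice of genes raises. Of the 270 genes apart from the control under Fe deficiency alone, 158 (58.5%) were at least 2-fold higher under Zn deficiency than under Cd exposure. Among the 134 genes with neither condition 2-fold from the control, 46 (34.3%) were.

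The 133 genes higher under Zn excess showed less of this pattern. Their median difference between Zn deficiency and Cd exposure was 0.041. At least 2-fold higher levels were found for 24 genes (18.0%) under Zn deficiency and for 12 (9.02%) under Cd exposure, both above the 10.3% and 2.63% of all genes. In the limma test 25 rose and 13 (9.77%) fell under Zn deficiency relative to Cd exposure, where 10.3% and 3.11% of all genes did. Whether the shares of the 438 and the 133 genes differ was not tested. Over all 11123 genes, which are not independent replicates, the difference between Fe deficiency and Zn excess correlated with that between Zn deficiency and Cd exposure at r = 0.19 (Spearman's rho 0.098). The relation over all genes was thus weak.

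**Figure D4:**
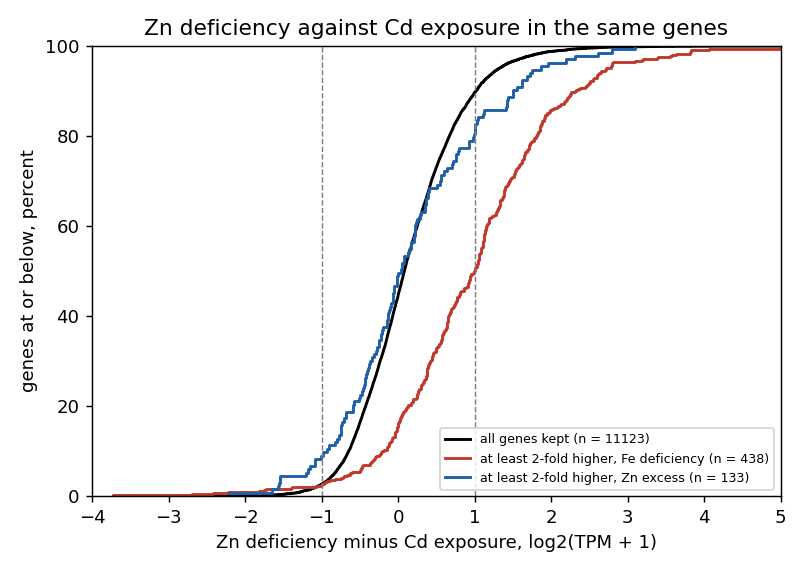
Cumulative percent of genes (vertical axis) by the log2(TPM + 1) difference of Zn deficiency minus Cd exposure (horizontal axis), with dashed lines at 2-fold. The curve of the 438 genes higher under Fe deficiency lies to the right of that of all genes, with a median of 1.00 against 0.080, and the curve of the 133 genes higher under Zn excess is wider than that of all genes but centred near it.

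The 438 genes also varied between libraries within the control and Zn deficiency tables. Their median library contrast was -25.6% in the control and -21.7% in Zn deficiency, against 0.44% and -3.85% over all genes. A contrast below -50% was found for 116 of them in the control (26.5%, against 2.53% of all genes) and for 112 in Zn deficiency (25.6%, against 11.8%). Under Fe deficiency, Zn excess and Cd exposure their medians were 11.7%, 7.57% and 5.83%. As a coefficient of variation, the spread from the contrast was 46.3% in the control, 50.3% in Zn deficiency, 32.1% in Fe deficiency and 33.4% in Zn excess, against 19.7%, 39.3%, 23.6% and 30.7% over all genes. Among the 209 of these genes with a contrast within 50% in the control, Zn deficiency and Cd exposure, 84 (40.2%) were at least 2-fold higher under Zn deficiency than under Cd exposure, against 6.86% of the 8510 genes so limited. The part of the variation between libraries in the differences was not tested beyond this.

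The 133 genes varied most between libraries in Zn deficiency, with a coefficient of variation of 55.4% there and 46.5% in Zn excess. In Zn deficiency their median contrast was 16.2%, against -3.85% over all genes, and 24.8% of them had a contrast above 50%, against 8.21%. Of the 12 genes with the largest differences in favour of Zn excess, 8 had a contrast below -50% within Zn excess, against 1.85% of all genes, and 11 had a negative one. For all 133 genes the median contrast in Zn excess was 8.32%, close to the 6.41% of all genes, and for the 33 genes 2-fold above the control under Zn excess alone it was -26.2%. The replicate libraries of Zn excess therefore did not hold the most extreme genes evenly. The test draws the spread of a gene towards that of all genes at its level, and so understates it for such genes.

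**Figure D5:**
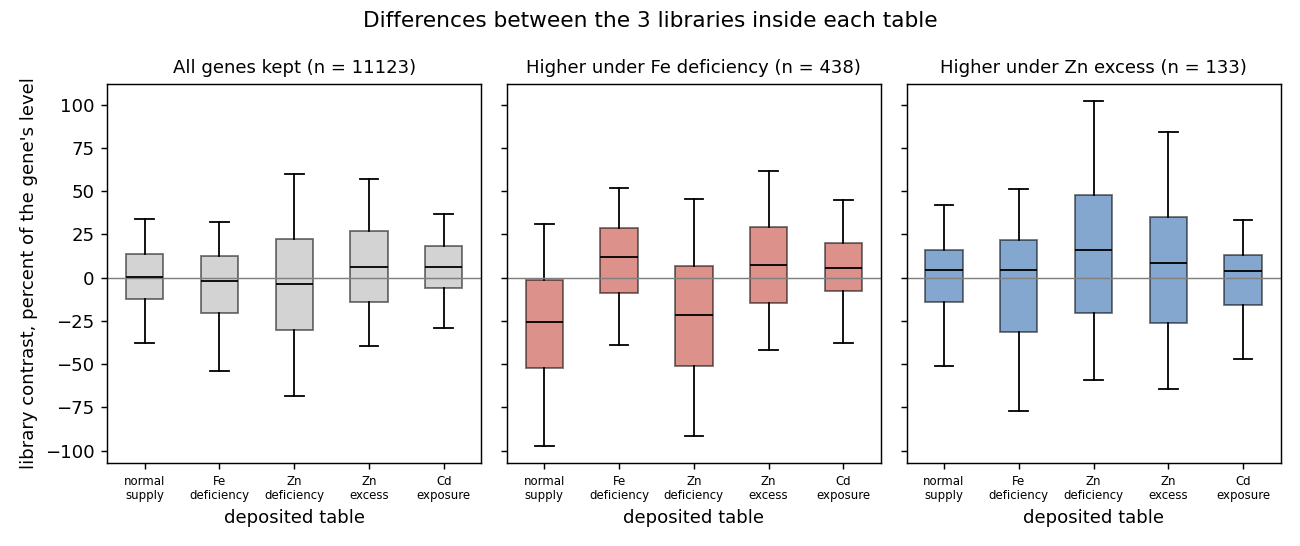
Library contrast as percent of the gene's level (vertical axis) in each of the 5 tables for all genes kept, the 438 genes higher under Fe deficiency and the 133 genes higher under Zn excess, with boxes from the lower to the upper quartile, a line at the median and whiskers from the 5th to the 95th percentile. The 438 genes lie below 0 in the control and Zn deficiency tables (medians -25.6% and -21.7%), where all genes are centred near 0.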

How the data were processed

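Digital gene expression libraries of leaf RNA were analysed from 5 tables, 1 per condition. Per the file headers, the authors deposited the number of clean tags, which are estimated counts here (means of 3 libraries, with some tags divided among genes), and TPM, which the authors scaled to clean tags. Mapping tool, build and gene models: not given in the sources used here. Tables had 3114182 to 3435599 mean tags in genes, and 54.0% to 58.6% of clean tags lay in genes. Clean-tag totals of single libraries, recovered from the TPM of genes with 1 tag in 1 library, ran from 5575674 to 5997199. As each condition is 1 table, counts are by size, with a pseudocount of 1 TPM and a minimum mean of 5 TPM.

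The library contrast of a gene is its mean tags minus its TPM times the mean total, scaled to estimate the spread of single libraries. Squared contrasts were divided by their trend on expression, averaged over the conditions compared (2 degrees of freedom) and moderated by squeezeVar of limma 3.58.1 under R 4.3.3, which gave 23.0 total degrees of freedom. TMM factors came from edgeR 4.0.16, and no count model was run, since replicate counts were not used here. The p-values rest on the recovered spread between replicate pools of plants. Of the 23.0 degrees of freedom, 21.0 come from the spread of genes at large and not from the gene tested. On simulated tables for Fe deficiency against Zn excess with 10808 genes, the test called 14 of 100 genes changed 2-fold (14.0%). It called 85 of 99 changed 4-fold (85.9%) and 9 of 10609 unchanged genes. The false calls were thus 9, beside 14 and 85 true ones. The simulation drew each gene independently, without library differences shared by groups of genes, so its false calls need not hold for these data. Its shares are of genes with a set change, whereas the pass shares above are of genes chosen by their observed difference. A value was taken as a multiple of 1 tag divided by 3 within 0.0001 tag, with a wider margin above 10 tags.

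Named genes were the 12 with the largest difference on each side and the 3 with the largest plain TPM difference on each side. Only 2 per side are given by identifier, since no annotation pairs the identifiers with names, and the gene lists by function could not be used. The comparison and its rules were chosen with earlier results of these data known. The comparison of Zn deficiency with Cd exposure and the library contrasts within groups were chosen after the data were seen. Alternatives were other pseudocounts, filters, scalings, fold limits, genes without fractional tags and another source of the spread.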

Additional observations from a re-analysis of the deposited data

How the results depend on the processing

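In each setting more genes were at least 2-fold higher under Fe deficiency than under Zn excess, but counts by size moved. With a pseudocount of 5 the counts were 247 and 68, without a filter on low values 663 and 229, with a minimum mean of 20 TPM 179 and 55, and at 4-fold 72 and 9. The median difference was 0.038 on tags in genes and 0.074 at a minimum mean of 20 TPM. With the spread of all 5 conditions, 284 and 79 genes passed the test in place of 434 and 119. The share of the genes higher under Fe deficiency that were 2-fold from the control under that condition alone was 56.6% without a filter and 37.5% at 4-fold. Of the genes higher under Zn excess, the share 2-fold from the control under Fe deficiency alone was 14.7% with a pseudocount of 5 and 11.1% at 4-fold. The share of genes higher under Fe deficiency that were at least 2-fold higher under Zn deficiency than under Cd exposure was 42.1% with a pseudocount of 5 (5.21% of all genes), 43.4% without a filter (5.91%), 30.6% when both limits were 4-fold (1.22%), and 40.2% among genes with small library contrasts (6.86%). Among the genes higher under Zn excess it was 0% at 4-fold, over 9 genes. The cause of these moves was not tested, other than that a stricter limit leaves fewer genes. All 120 alternative values of the 30 named genes, from other pseudocounts and scalings only, kept their direction and their side of the test. Values of the named genes with the spread of all 5 conditions were not compared. Of 48 counts of the other control classes, 30 stayed within 1.5 times.

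No paired analysis was possible because every table is a mean of 3 libraries, and replicates were not left out in turn for that reason. Alternatives for the comparison of Zn deficiency with Cd exposure were chosen after seeing the data. Counting error limits values of a few tags, and the contrast sees little of the middle library in Zn excess, Zn deficiency and Cd exposure.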

Other observations

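Before the limit on low values, 1485 genes were listed in the Fe deficiency table and not in the Zn excess table, and 1416 in the Zn excess table and not in the Fe deficiency table. The highest level among the former was 3.72 TPM and among the latter 5.29 TPM. All of them had a mean below 5 TPM over both tables.

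The summed level of the 438 genes higher under Fe deficiency was 12557 TPM in the control, 16701 TPM in Zn deficiency and 9536 TPM in Cd exposure. That of the 133 genes higher under Zn excess was 15020, 17907 and 8907 TPM in the same tables.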
